A study of Homo sapiens with 4 samples.

Results

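The genes described here build and run the DNA replication fork: 47 genes chosen by name, from the origin recognition complex through the MCM helicase to the polymerases, out of 25693 human genes in the count table. All 47 were found by their Ensembl identifier, and all 47 passed the filter on low counts. RNA was counted with the ddSeq droplet device and a kit that reads transcript 3' ends, in NGP, an established human neuroblastoma line with amplified MYCN. All cells had first been held without serum to synchronise their cycle, then received ethanol, the solvent, or Nutlin-3, a small molecule that keeps MDM2 from binding p53, for 24 h. Each treatment had 2 libraries, one with ERCC spike-in RNA at a 1000-fold and one at a 10000-fold dilution. Both groups are the same single cell line, and all were serum-starved, so no unstarved cells and no second line stand beside them. The comparison asks how the RNA of the replication machinery differed between Nutlin-3 and ethanol.

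Replication starts in 2 separate steps, and the genes are ordered by them below. In G1 the origin recognition complex (ORC), CDC6 and CDT1 load the ring of MCM2 to MCM7 onto DNA, a step called licensing, and geminin (GMNN) later blocks CDT1. At the start of S phase the kinase CDC7 with its activator DBF4 and the factors MCM10, CDC45 and GINS turn the loaded ring into the active helicase, named CMG after CDC45, MCM and GINS. Polymerase alpha with primase then starts each strand, the loader RFC sets the sliding clamp PCNA, polymerases delta and epsilon extend, and FEN1 and LIG1 join the lagging strand pieces. Many of these genes are activated by E2F factors at the G1 to S transition. When p53 is active, p21 (CDKN1A) keeps the RB family proteins bound to E2F, and such genes are known to be repressed.

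The column names gave the treatment but not the library, so each treatment was 1 pool of 250 columns and the difference between treatments has no replicate. The ethanol pool held 1342134 human counts and the Nutlin-3 pool 1301232. In each pool 113 columns held more than 4000 counts and are called large here, and 137 held fewer and are called small. Large columns carried 88.7% of the human counts in ethanol and 89.2% in Nutlin-3. Of the 250 names, 219 occurred in both treatments, and the 113 names of large columns were the same 113 in both. A column was therefore not taken as 1 cell. The p53 targets showed the treatment: all 20 on a list of such genes were higher in Nutlin-3. At least 25% higher were 19 of them, against 14.9% of all genes tested, and CDKN1A had 188 counts against 70. The counting interval, explained below, lay above 0 for 17 of the 20, against 4.55% of all genes tested, and included 0 for BAX, XPC and TP53I3. This list was chosen with earlier results of these data known. All 9 adrenergic neuroblastoma markers were counted, with 2771 counts in ethanol and 2572 in Nutlin-3. Of 20 markers of 5 other cell types, 12 were analysed. The fibroblast or mesenchymal markers summed to 113 counts in ethanol and 109 in Nutlin-3, the leukocyte markers to 33 and 58, the epithelial to 17 and 21, the endothelial to 1 and 2, and the hepatocyte to 1 and 0. These sums hide single genes that differed: COL1A1 had 29 and 47 counts, LUM 34 and 13, LYZ 24 and 49, and, among the adrenergic markers, MYCN 1140 and 877. Their part in the results was not tested.

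Replication genes were lower in Nutlin-3 almost without exception, by modest amounts in the pooled counts. Of the 47 genes, 45 had a log2 fold change, the log2 ratio of scaled counts between Nutlin-3 and ethanol, below 0, and ORC2 and PRIM2 were the 2 above it. Below 0 also lay 50.3% of the 14830 genes tested, and 52.5% of the 8850 genes whose mean count fell in the range of these 47 genes, from 61 to 211.5. The median of the 47 was -0.24, with an order-statistic interval over genes of -0.34 to -0.19. That interval takes the genes as independent, although all were read from the same pools, and holds no variation between cultures. The median of all genes tested was -0.001 and that of genes in the same count range -0.009. Added together, the 47 genes were counted 6248 times in ethanol and 5108 times with Nutlin-3, which is 0.466% of human counts (exact binomial interval 0.454 to 0.477) against 0.393% (0.382 to 0.403). That is 15.6% lower after scaling, a log2 ratio of -0.24 (counting interval -0.30 to -0.19). The counting interval, used throughout, was an exact 95% binomial one, computed on the fraction of a gene's counts that came from Nutlin-3. It takes counts as independent, covers counting error only, and holds no variation between cultures. How reads were collapsed to molecules is not known here, and counts in the columns that hold most of them did not spread as independent counts do, as described further on, so the intervals are approximate. The size of the difference depended on the class of column, with the summed log2 ratio at -0.63 in small and -0.19 in large columns. Most values of these genes in large columns were exactly 1, and whether this limits the fold changes was not tested. In pooled counts, fewer cells in S phase and less of each RNA per cell cannot be told apart.

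A gene was called lower when its scaled count was at least 20% lower in Nutlin-3, and higher when it was at least 25% higher, the same distance of 0.32 on the log2 scale. By that rule 17 of the 47 (36.2%) were lower and 0 higher, where 12.4% of all genes tested were lower and 14.9% higher. Among genes in the same count range 4.15% were lower and 4.33% higher. At 1.5-fold only ORC1 and CLSPN remained, against 5.85% of all genes tested and 0.542% of genes in the range. The counting interval lay wholly below 0 for 8 of the 47 (17.0%), against 3.57% of all genes tested and 1.86% of genes in the range. These 8 were ORC1, MCM4, MCM7, GINS3, PCNA, RFC5, POLD3 and CLSPN. For the other genes the interval included 0. With the ERCC species as library size in place of human counts, all 47 were called lower, but so were 73.6% of all genes tested. The interval then lay below 0 for all 47 and for 53.8% of all genes. The libraries of a treatment had different spike-in dilutions, and their parts in a pool are not known. ERCC counts are therefore a doubtful library size here. All 47 genes were read from the same pools, so they are not 47 independent observations.

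**Figure D1:**
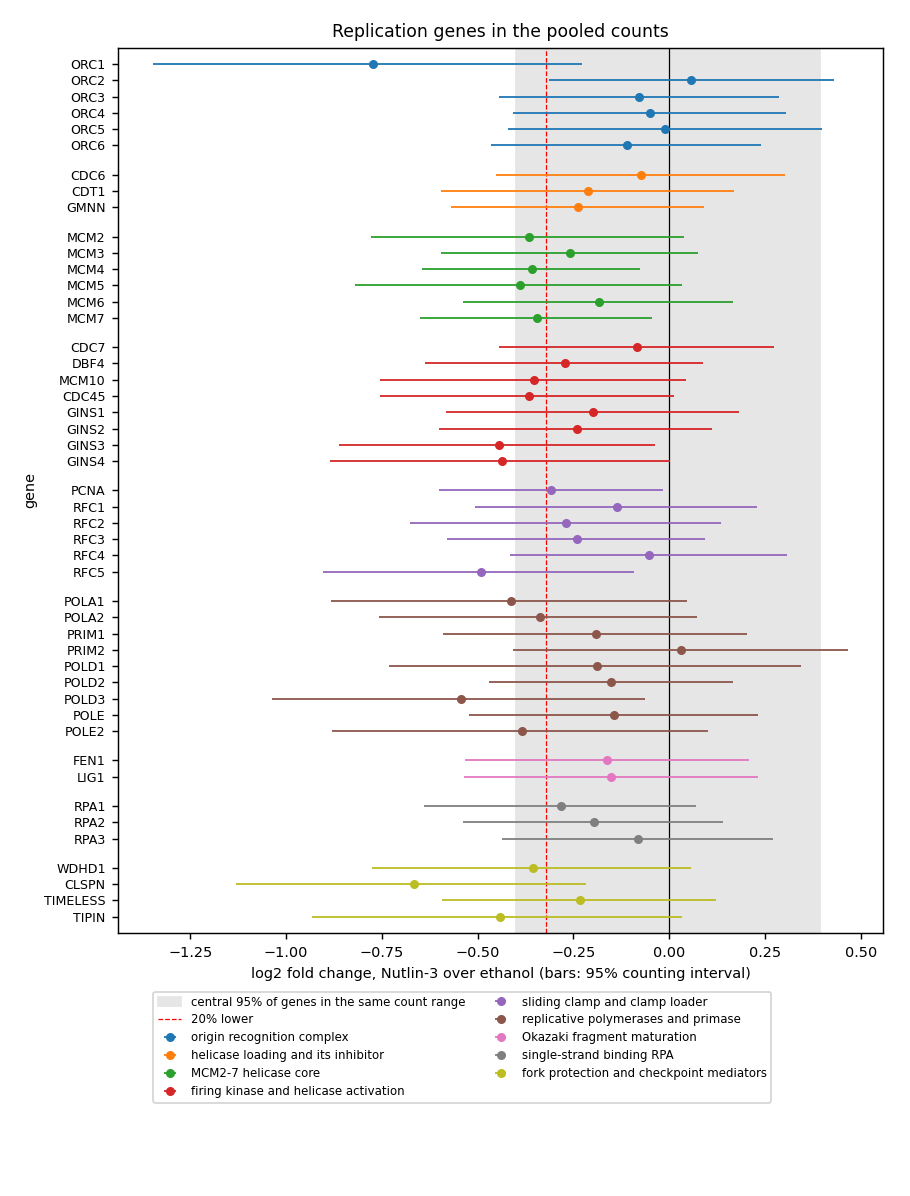
Log2 ratio of counts, Nutlin-3 to ethanol, for the 47 replication genes, by functional group, with 95% counting intervals, 1 pool per treatment. The grey band holds the central 95% of the 8850 genes in the same count range, and the dashed line marks 20% lower. ORC1 and CLSPN lie farthest to the left, while ORC2 and PRIM2 lie just right of 0.

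The promoters of these genes were searched for the E2F motif, since members with and without it can be set side by side. The window ran from 250 bases before to 50 bases after the annotated start, from RefSeq on GRCh38.p14, and 41 of the 47 genes matched. The motif was taken as TTTCCCGC, TTTCGCGC, TTTGCCGC or TTTGGCGC on either strand. It occurred in 18 of the 41 promoters (43.9%), against 3.31% of all 35116 promoters of that length and 5.47% of the 10190 matched to genes tested here. The 18 had a median log2 ratio of -0.25 and the other 23 of -0.19. Among the genes tested, the medians with and without the motif were -0.04 and -0.005. At least 20% lower were 7 of the 18 with a match and 6 of the 23 without. ORC1, RFC5 and CDC45 were lower without a match in this window, and MCM6 held 4 matches, overlapping in pairs, at a log2 ratio of -0.18. CCAAT, the letters read by NF-Y, occurred in 23 of 41 promoters against 34.6% of all and 37.4% of those matched to genes tested. TTTGAA, a form of the CHR element of late cell cycle genes, occurred in 1 of 41, that of DBF4, against 15.2% of all and 9.68% of those matched to genes tested. A match is a run of letters and not a measured site. The promoters below are those of the 4 genes with an E2F match and the lowest fold changes among those that could be printed, and show where the letters stand. Each runs 5' to 3' on the gene's own strand, from 150 bases before the start to 30 after it, and the capitals mark the match.
CLSPN (chr1:35769949-35770128, minus strand): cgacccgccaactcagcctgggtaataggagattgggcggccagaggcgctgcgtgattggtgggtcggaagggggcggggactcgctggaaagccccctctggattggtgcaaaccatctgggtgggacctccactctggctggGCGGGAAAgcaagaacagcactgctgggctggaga
GINS3 (chr16:58392321-58392500, plus strand): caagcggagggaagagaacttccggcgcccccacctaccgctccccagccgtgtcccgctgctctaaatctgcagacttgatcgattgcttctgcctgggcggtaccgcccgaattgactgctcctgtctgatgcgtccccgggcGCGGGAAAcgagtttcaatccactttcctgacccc
POLA1 (chrX:24693768-24693947, plus strand): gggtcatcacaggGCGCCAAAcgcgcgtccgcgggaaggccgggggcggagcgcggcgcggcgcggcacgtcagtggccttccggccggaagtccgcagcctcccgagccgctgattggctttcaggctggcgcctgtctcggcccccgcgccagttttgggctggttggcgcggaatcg
POLE2 (chr14:49688185-49688364, minus strand): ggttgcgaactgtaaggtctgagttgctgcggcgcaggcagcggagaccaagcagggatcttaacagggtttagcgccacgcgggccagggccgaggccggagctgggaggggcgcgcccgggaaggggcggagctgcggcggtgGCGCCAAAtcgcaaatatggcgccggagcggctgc
In CLSPN, GINS3 and POLE2 the first base of the match lies 5 bases before the start, and in POLA1 it lies 137 bases before it.

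Within the origin recognition complex ORC1 had a lower value than the other 5 subunits. ORC1 (ENSG00000085840, chromosome 1, 52372829 to 52404459 in GRCh38), the subunit whose level varies through the cycle, was counted 78 times in ethanol (95% Poisson interval 61.7 to 97.3) and 44 times with Nutlin-3 (32.0 to 59.1). Its log2 fold change was -0.77 (-1.35 to -0.23), the lowest of the 47 genes. ORC2 (chromosome 2, 200908973 to 200963680), a core subunit, had 123 and 124 counts and the highest value of the set, 0.06 (-0.31 to 0.43). ORC3, ORC4, ORC5 and ORC6, the remaining subunits, lay between -0.11 and -0.01, with intervals that included 0. The interval of ORC1 overlapped those of the other 5 subunits. Overlap is no test of a difference, and a difference between single subunits was not tested.

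The loading factors had small log2 ratios in the pooled counts, with wide intervals. CDC6, which brings the MCM ring to ORC, was counted 125 times in ethanol and 115 times with Nutlin-3, a log2 ratio of -0.07 (-0.45 to 0.30). CDT1, the partner that carries MCM to the origin, had 128 and 107 counts, a value of -0.21 (-0.60 to 0.17). GMNN, which encodes the CDT1 inhibitor geminin, had 173 and 142 counts, a value of -0.24 (-0.57 to 0.09). None (0) of these 3 genes were at least 20% lower, and all 3 intervals included 0. Their sum was at -0.07 (-0.29 to 0.15) in large columns but at -0.92 (-1.58 to -0.30) in small ones.

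The MCM ring was lower as a whole. MCM2 to MCM7 encode the 6 different subunits of the ring, which are needed in equal number. Together they were counted 1003 times in ethanol and 780 times with Nutlin-3, 19.7% lower after scaling, with a log2 ratio of -0.32 (-0.45 to -0.18). MCM5 (chromosome 22, 35400063 to 35425430) was counted 111 times in ethanol and 82 times with Nutlin-3, a log2 ratio of -0.39 (-0.82 to 0.03). MCM2 (chromosome 3, 127598223 to 127622436) had 120 and 90, a log2 ratio of -0.37 (-0.78 to 0.04). For MCM4 (chromosome 8, 47960185 to 47978160) the counts were 241 and 182, with -0.36 (-0.64 to -0.08). MCM7 (chromosome 7, 100092728 to 100101940) stood at 214 and 163 with -0.35 (-0.65 to -0.05). MCM3 stood at 168 and 136 counts with -0.26 (-0.60 to 0.08), and MCM6 at 149 and 127 with -0.18 (-0.54 to 0.17). All 6 values were below 0, against 50.3% of all genes tested, and 4 were at least 20% lower, against 12.4%. The 6 intervals overlapped one another. In large columns alone 1 of the 6, MCM5, was at least 20% lower, the sum was at -0.22 (-0.37 to -0.07), and the intervals of MCM4 and MCM7 included 0.

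Helicase activation showed differences of the same size. The 8 genes summed to 1047 counts in ethanol and 830 in Nutlin-3, a log2 ratio of -0.29 (-0.42 to -0.16). At least 20% lower were 4 of the 8, against 12.4% of all genes tested. GINS3 (chromosome 16, 58295080 to 58406144), a subunit of the 4-part GINS complex whose promoter is printed above, was counted 121 times in ethanol (100.4 to 145) and 86 times with Nutlin-3 (68.8 to 106), and had the lowest value of the group, -0.44 (-0.86 to -0.04). GINS4 followed with -0.44 (-0.89 to 0.002), GINS2 was at -0.24 and GINS1 at -0.20. CDC45, which completes the CMG helicase, had 136 and 102 counts and a log2 ratio of -0.37 (-0.75 to 0.01). MCM10, which acts on the assembled helicase and shares only its name with the ring, had 124 and 94 counts and a value of -0.35 (-0.76 to 0.04). The kinase pair was unequal in size, with DBF4 at -0.27 (-0.64 to 0.09) from 146 and 117 counts and CDC7 at -0.08 (-0.45 to 0.27) from 138 and 126 counts. CDC7 was the highest of the group, and the intervals of the pair overlapped.

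The clamp gene PCNA and RFC5 of its loader were the 2 genes of their group whose interval lay below 0. PCNA (chromosome 20, 5114953 to 5126626) encodes the sliding clamp and is also known as a direct p53 target in other settings. It was counted 225 times in ethanol (197 to 256) and 176 times with Nutlin-3 (151 to 204), a log2 ratio of -0.31 (-0.60 to -0.02). Its direction was that of the replication genes and not that of the 20 p53 targets, whose values ran from 0.20 to 3.30. RFC5 (chromosome 12, 118013588 to 118033130), a small subunit of the loader, had 128 and 88 counts and the lowest value of the group, -0.49 (-0.90 to -0.09). RFC4, another small subunit, had 135 and 126 counts and the highest, -0.05 (-0.42 to 0.31). RFC2 and RFC3 were at -0.27 and -0.24, and RFC1, the large subunit, at -0.14. The 6 genes summed to a log2 ratio of -0.25 (-0.39 to -0.11).

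Polymerase genes ran from -0.54 for POLD3 to 0.03 for PRIM2. POLD3 (chromosome 11, 74493851 to 74669117), an accessory subunit of polymerase delta, was counted 92 times in ethanol (74.2 to 113) and 61 times with Nutlin-3 (46.7 to 78.4), a log2 ratio of -0.54 (-1.04 to -0.06). PRIM2, the large primase subunit, had 91 and 90 counts and a value of 0.03 (-0.41 to 0.47). POLA1, the catalytic subunit of polymerase alpha, was at -0.41 (-0.88 to 0.05) from 95 and 69 counts, and POLA2, its B subunit, at -0.34 (-0.76 to 0.07). POLE2, an accessory subunit of polymerase epsilon, was at -0.38 (-0.88 to 0.10). The catalytic subunits of delta and epsilon, POLD1 and POLE, were at -0.19 and -0.14, PRIM1 at -0.19 and POLD2 at -0.15. Of the 9 genes, 8 were lower and 4 at least 20% lower, against 50.3% and 12.4% of all genes tested. The sum of the 9 had a log2 ratio of -0.24 (-0.38 to -0.10).

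Lagging strand and single-strand binding genes had small log2 ratios in the pooled counts, and their intervals included 0. FEN1, the flap nuclease, had 134 and 116 counts in ethanol and Nutlin-3 and a log2 ratio of -0.16 (-0.53 to 0.21). LIG1, the ligase, had 125 and 109 counts and a value of -0.15 (-0.54 to 0.23). Of the 3 RPA genes, whose proteins coat single-stranded DNA, RPA1 was the lowest at -0.28 (-0.64 to 0.07) from 152 and 121 counts. RPA3 was the highest at -0.08 (-0.44 to 0.27) from 142 and 130 counts, and RPA2 lay at -0.20. None (0) of the 5 genes were at least 20% lower.

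Fork protection genes had the lowest median of the 9 groups, -0.40. CLSPN (chromosome 1, 35720218 to 35769967) encodes claspin, which links the fork to the checkpoint kinase CHK1. It was counted 110 times in ethanol (90.4 to 133) and 67 times with Nutlin-3 (51.9 to 85.1), a log2 ratio of -0.67 (-1.13 to -0.22). TIPIN, which works as a pair with TIMELESS, had 90 and 64 counts and a value of -0.44 (-0.93 to 0.03). TIMELESS had 147 and 121 counts and the highest value of the group, -0.23 (-0.59 to 0.12). WDHD1, which joins the helicase to polymerase alpha, was at -0.35 (-0.78 to 0.06). The 4 genes summed to 462 counts in ethanol and 339 in Nutlin-3, 24.2% lower. At least 20% lower were 3 of the 4, against 12.4% of all genes tested. With 4 genes, this median was not tested against the other groups, and the interval of the sum, -0.61 to -0.20, overlapped those of all 8 other groups.

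Counts of the replication genes in the large columns ran close to 1 per gene. The mean count of a replication gene per large column had a median over the 47 genes of 1.01 in ethanol and 0.903 in Nutlin-3, and was lowest for ORC1 in Nutlin-3, at 0.381. Of all values of these genes in large columns, 83.3% were exactly 1 in ethanol and 76.4% in Nutlin-3. Over all human genes and all columns, 92.8% of the non-zero values were exactly 1, which is a different base. Values of 1 were thus not particular to these genes, and the spread of other genes over large columns was not tested. The variance of the 47 genes over large columns, divided by the mean, had a median of 0.158 in ethanol and 0.208 in Nutlin-3, where independent counts would give a value near 1. The number of large columns in which a gene was not counted at all was also taken, a choice made after these values were seen. Where most values are 0 or 1 it nearly restates the sum: ORC1 had 43 counts in Nutlin-3 and was missing from 70 of 113 columns. It is another view of the same counts and no separate support.

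Most replication genes were missing from more large columns in Nutlin-3. Of the 47 genes, 42 were missing from more large columns in Nutlin-3 than in ethanol, 2 from fewer (ORC2 and ORC4), and 3 from as many, namely 0 (MCM7, PCNA and POLD2). Among all genes tested 53.8% were missing from more, and among genes in the same count range 59.8%. At least 10 more columns lacked the gene in Nutlin-3 for 22 of the 47 (46.8%), against 14.3% of all genes tested and 14.5% of genes in the same count range, and 0 of the 47 were missing from at least 10 fewer, against 9.49% and 6.42%. CLSPN was missing from 14 of 113 large columns in ethanol (12.4%, exact binomial interval 6.94 to 19.9) and from 50 in Nutlin-3 (44.2%, 34.9 to 53.9). ORC1 was missing from 38 and 70 columns, and POLA1 from 24 and 50. RFC5 was missing from 3 (2.65%, 0.551 to 7.56) and 28 (24.8%, 17.1 to 33.8). CDC45 was missing from 1 and 17 columns, MCM10 from 4 and 27, and MCM5 from 12 and 38.

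The exact binomial intervals of the missing share, which take the columns of a pool as independent although they are not replicates, were apart, with the higher share in Nutlin-3, for 18 of the 47 genes (38.3%). Of all genes tested 3.97% were apart in that direction, and of genes in the same count range 4.61%. The 18 were ORC1, CDC6, MCM2, MCM5, MCM10, CDC45, GINS1, GINS3, GINS4, RFC5, POLA1, POLA2, PRIM1, POLD3, POLE2, WDHD1, CLSPN and TIPIN. CDC6 belongs here, with 2 and 13 columns, although its summed fold change was -0.07. MCM4 and PCNA do not, since 0 and at most 1 large columns lacked them, so this measure says nothing of their difference. Taken as -ln of the missing share, a quantity that equals the mean for independent counts, the 40 genes with a value had a median log2 ratio of -0.72, against -0.07 for all 13154 genes with a value. By this quantity 31 of the 40 were at least 20% lower, against 28.9% of those 13154 genes. The counts of large columns did not spread as independent counts do, so that figure is a description and no estimate of RNA level.

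**Figure D2:**
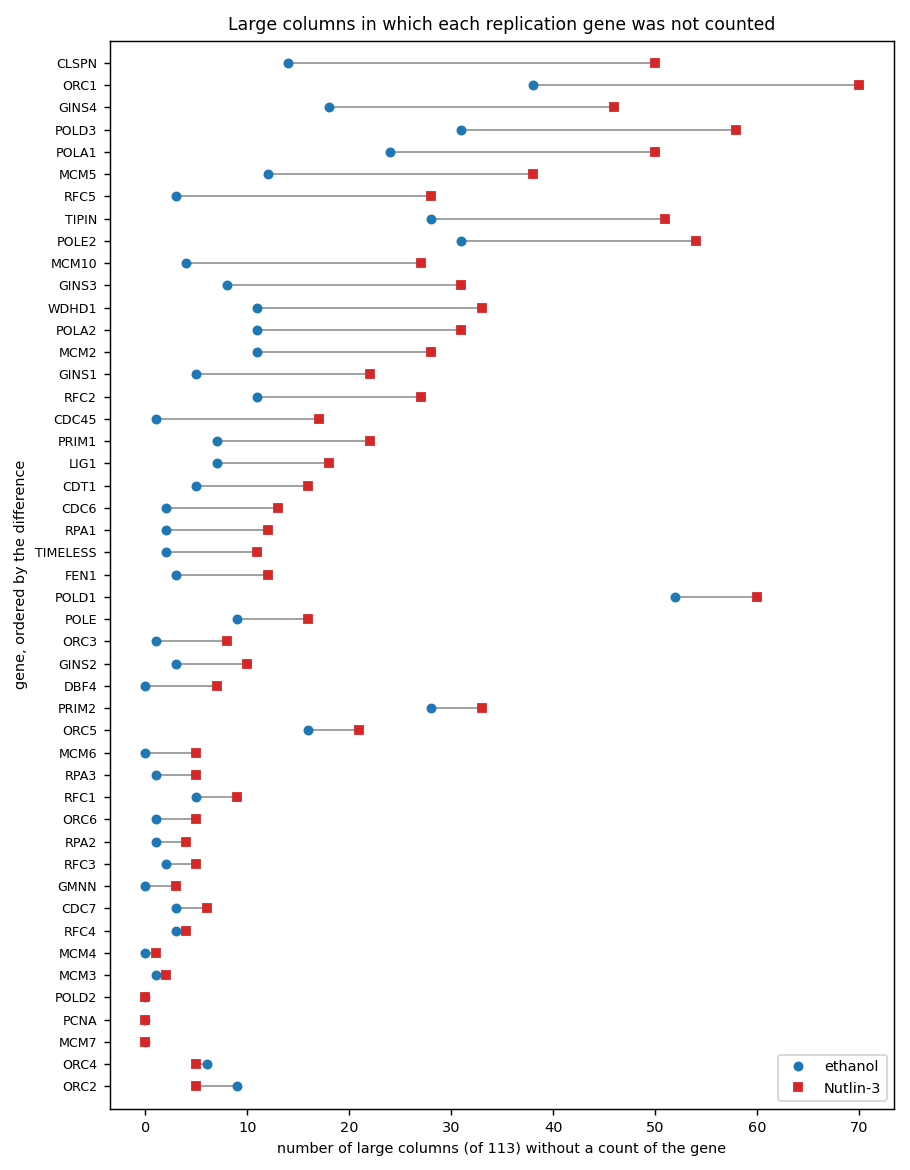
Number of large columns, of 113 per treatment, without a count of each replication gene, in ethanol (circles) and Nutlin-3 (squares), ordered by the difference. CLSPN moves from 14 to 50 columns and ORC1 from 38 to 70, while MCM7, PCNA and POLD2 were counted in every large column.

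A large column held fewer of the 47 genes in Nutlin-3. The median number counted per large column was 44 in ethanol (quartiles 42 and 45, range 25 to 47) and 40 in Nutlin-3 (37 and 41, range 17 to 46). Median totals of these columns were close, 10763 and 10647 counts. Columns of both classes were also thinned at random to 700 counts, the depth that 194 ethanol and 187 Nutlin-3 columns reached. They held a mean of 3.65 of the 47 genes in ethanol (SD over columns 1.87) and 2.81 in Nutlin-3 (SD 1.61), with a median of 3 in both. At that depth large columns alone held a mean of 3.28 in ethanol and 2.91 in Nutlin-3, also with a median of 3 in both. Small columns held a mean of 4.17 and 2.66, with medians of 4 and 2. The 56 and 63 shallower columns were left out. Without thinning, over all columns, the medians were 13.5 and 8. Columns are not replicates, and the distributions at 700 counts overlapped, from 0 to 8 and from 0 to 9 genes.

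**Figure D3:**
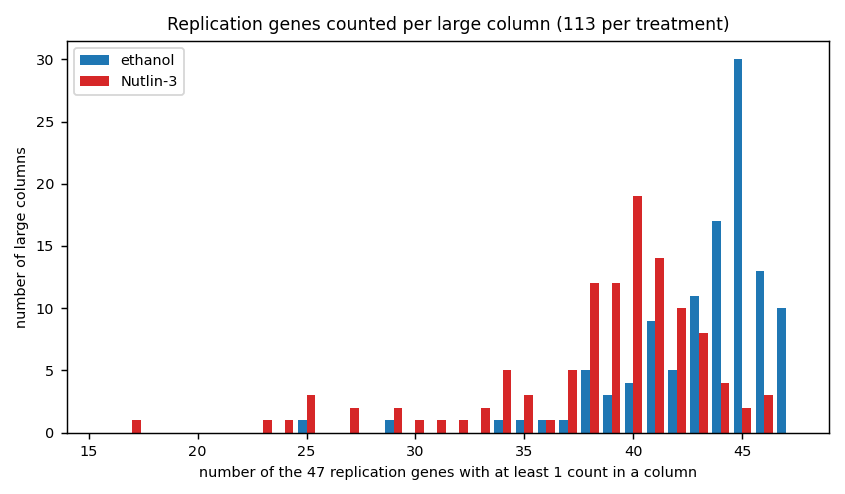
Histogram of the number of the 47 replication genes with at least 1 count per large column, 113 columns per treatment. Ethanol columns peak at 45 genes and Nutlin-3 columns at 40, and both have a tail towards fewer genes.

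Small columns gave larger differences from far fewer counts. There the 47 genes had 841 counts in ethanol, 0.555% of human counts (0.518 to 0.594), and 492 in Nutlin-3, 0.349% (0.319 to 0.381). The log2 ratio of the sum was -0.63 (-0.80 to -0.47), against -0.19 (-0.25 to -0.13) in large columns, and these counting intervals did not overlap. Helicase activation genes had 130 and 58 counts, a value of -1.02 (-1.50 to -0.57). The loading factors and geminin had 67 and 32 counts, a value of -0.92 (-1.58 to -0.30), and the MCM ring 201 and 109, a value of -0.74 (-1.09 to -0.40). The clamp and its loader stood at -0.65 (-1.06 to -0.25). Summed values in small and large columns were close for the polymerase genes, at -0.22 (-0.70 to 0.24) and -0.24 (-0.38 to -0.09). They were also close for the fork protection genes, at -0.44 (-1.26 to 0.34) and -0.40 (-0.61 to -0.18). Medians of the polymerase genes were not close, at 0.14 in small columns with 4 of 9 lower and -0.23 in large ones with 9 of 9 lower. In small columns 0.14 is the value that equal counts in both pools give after scaling, and it was also the median of all genes tested. Most of those genes had few counts there: the filter on low counts passed 4762 genes in small columns, against 14830 in all columns. Intervals of the helicase activation and polymerase sums overlapped in small columns, so a difference between these groups was not shown. Sums of other gene lists also differed more in small columns (given first) than in large ones. Other replication genes, described further on, stood at -0.55 and -0.18, deoxynucleotide enzymes at -0.37 and -0.16, and centromere genes at -0.41 and -0.20. The p53 targets, higher in Nutlin-3, stood at 1.249 and 0.772. Small and large intervals overlapped for the deoxynucleotide and centromere sums. A larger value in small columns was thus not particular to the 47 genes.

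In small columns 30 of the 47 genes were at least 20% lower, against 30.6% of all genes tested and 31% of those in the same count range. Counted by the number of small columns with the gene, 36 of the 47 were, against 32.8% of the 10821 genes with a value. In large columns 12 of the 47 were, against 12.1% and 3.51%, and the interval lay below 0 for 3, against 2.95% and 1.18%. A counting interval below 0 in small columns was found for 7 of the 47 genes, against 1.19% of all genes tested and 1.83% of those in the same count range. GMNN was counted 41 times in ethanol and 16 times with Nutlin-3 there, a log2 ratio of -1.19 (-2.15 to -0.35), while in the large columns it had 132 and 126. CDC45 had 15 and 3 counts, a value of -2.01 (-4.61 to -0.36). MCM2 had 16 and 4 counts, with -1.74 (-3.90 to -0.23), and DBF4 had 20 and 7, with -1.31 (-2.86 to -0.08). MCM4, with 75 and 41 counts, was at -0.73 (-1.32 to -0.17). PCNA, with 61 and 36, was at -0.61 (-1.26 to -0.01), and RFC5, with 13 and 3, at -1.81 (-4.43 to -0.11). PCNA and MCM4, for which the large columns left almost no empty columns to compare, thus had a lower count in the small ones. MCM5, POLA1 and POLA2, called lower in all columns, had the opposite sign here from very few counts, 3 and 7 for MCM5, 3 and 3 for POLA1, and 5 and 5 for POLA2. Their intervals included 0. The counts of POLA1 and POLA2 were equal, so their sign here came from the scaling alone. ERCC species took 0.329% of the counts of small ethanol columns and 0.536% of small Nutlin-3 columns, against 0.209% and 0.279% in large ones, and the part of that difference in these values was not tested.

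**Figure D4:**
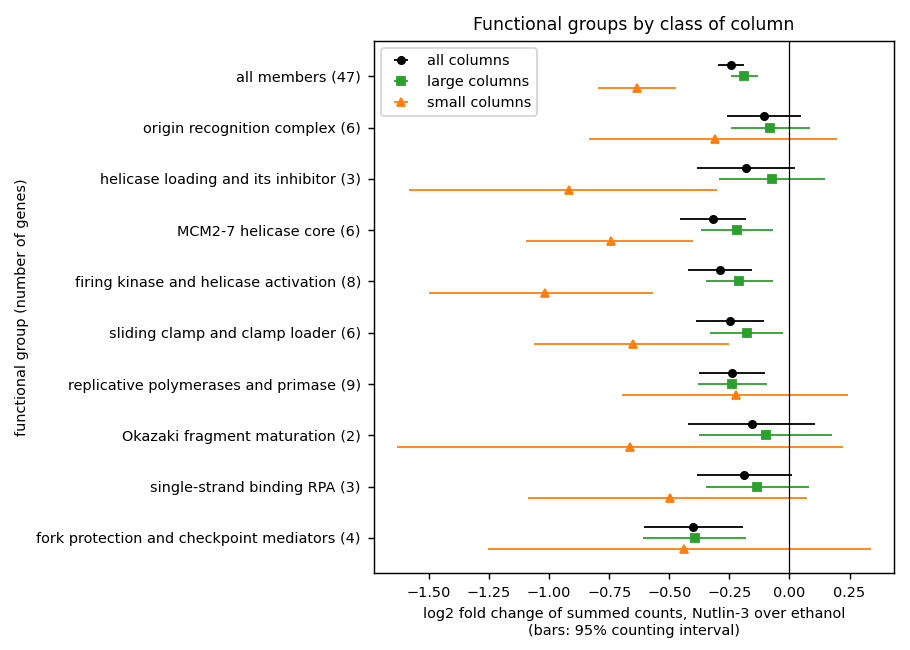
Log2 fold change of the summed counts of each functional group, Nutlin-3 over ethanol, in all, large and small columns, with 95% counting intervals. The sum of all 47 genes is at -0.63 in small and -0.19 in large columns, and the polymerase group is at -0.22 and -0.24.

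Other genes that act in replication, on a list of 41, showed the same direction with 2 exceptions of size. Of the 41, 36 were lower and 5 higher, and 14 (34.1%) were at least 20% lower and 2 at least 25% higher, with a median of -0.23. Of all genes tested, 50.3% were lower, 12.4% were at least 20% lower and 14.9% at least 25% higher. The interval lay below 0 for 11 (26.8%), against 3.57% of all genes tested, and above 0 for 2, against 4.55%. ASF1B, a histone chaperone at the fork, had the lowest value, -0.69 (-1.33 to -0.09), from 62 counts in ethanol and 37 in Nutlin-3. TICRR, which helps load CDC45, was at -0.65 (-1.10 to -0.22) from 117 and 72 counts. Both subunits of the chromatin assembly factor on the list were lower, CHAF1B at -0.61 (-1.11 to -0.14) and CHAF1A at -0.56 (-0.96 to -0.17). The highest value, 1.76, with an interval from just above 0 to 4.40, belonged to POLD4, a small polymerase delta subunit, from 3 and 11 counts, and POLD4 was the 1 gene of the list that did not pass the filter. CCNE1 and CCNE2, the cyclins E that drive S phase entry with CDK2, went in opposite directions. CCNE1 was counted 38 times in ethanol and 64 times with Nutlin-3, a log2 ratio of 0.79 (0.20 to 1.42), and CCNE2 had 72 and 45, a value of -0.63 (-1.20 to -0.07). The intervals of the cyclins E did not overlap. TICRR, CHAF1A, CHAF1B, CCNE1 and CCNE2 were picked for mention after their values were seen.

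Other proliferation genes had medians close to that of the replication genes, and a difference was not tested. The 12 deoxynucleotide synthesis enzymes had a median of -0.21, and all 12 were lower, 2 (16.7%) by at least 20%. Of all genes tested 50.3% were lower, and 12.4% by at least 20%, as were 36.2% of the 47 replication genes. DUT, the dUTP pyrophosphatase, was the lowest of the 12 enzymes at -0.50 (-0.77 to -0.23), and DCK, deoxycytidine kinase, the highest at -0.03 (-0.42 to 0.36). The 18 centromere and spindle checkpoint genes, which act in mitosis, had a median of -0.23, and all 18 were lower, 4 (22.2%) by at least 20%. SPC25, a kinetochore subunit, was the lowest at -0.51 (-0.93 to -0.10), and BUB3, a checkpoint protein, the highest at -0.04 (-0.35 to 0.28). The summed log2 fold changes were -0.21 (-0.30 to -0.12) for the deoxynucleotide enzymes and -0.25 (-0.32 to -0.17) for the centromere genes, and both intervals overlapped that of the 47 replication genes.

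Some counts may hold reads of other genes. In 15 of the 47 genes the annotated span overlaps another gene with at least 10 counts in a pool. Among them are RFC4 with EIF4A2 and FEN1 with TMEM258 on opposite strands. On the same strand are PRIM1 with NACA, FEN1 with FADS2, POLD3 with LIPT2-AS1 and RFC3 with a gene inside its intron. Whether the counting used strand is not given in the sources used here, so reads of such pairs may not be separable. Processed copies of 6 of the genes were also listed, among them DBF4P1 with 21 counts in ethanol and 6 in Nutlin-3 and RPA3P2 with 17 and 10, and how reads shared between a gene and its copy were assigned is not known.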

How the data were processed

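The authors deposited raw whole-number counts per gene and column, 500 columns in all, made per the labels' protocols with the ddSeq device and the SureCell WTA 3' kit on polyadenylated RNA. The aligner, build, annotation, strand setting, tag handling and cell filter were not given in the sources used here. Each column's group, Nutlin-3 or ethanol, was set by the ending of its name, treated or untreated. Counts were summed per treatment without the 62 ERCC species, scaled by TMM of edgeR 4.0.16 in R 4.3.3, and filtered with its minimum of 10. Fold changes had 0.5 counts added to each sum. Since columns were not taken as cells, no doublet caller was run. With 1 pool per treatment no test was run and no p-value computed. Alternatives included the size factors of DESeq2 1.42.0. The scripts were tested on simulated data with independent counts. Counts in large columns did not spread that way, so the intervals were not tested for such data. Gene names were matched for 25422 of 25693 identifiers, and positions are from GENCODE release 29 on GRCh38, which need not be the authors' build. For a functional group, an alternative was compared with the width of the counting interval of its sum. Genes with counts printed were MCM2 to MCM7, PCNA, CDT1, GMNN, the lowest and highest of each group; a few others were added after their values were seen. The members and lists were chosen with earlier results of these data known.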

Additional observations from a re-analysis of the deposited data

How the results depend on the processing

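The median of the 47 genes was -0.24, and 17 were at least 20% lower. The median was below 0 in each alternative. DESeq2 size factors, no filter, a prior count of 2, thinning to the shallower pool, leaving out the shallowest columns and keeping only names found in both treatments left the median within its order-statistic interval and the count within 1.5 times. ERCC counts as library size gave a median of -0.71, with 47 genes called lower and 47 intervals below 0, where the median of all genes was -0.47. Large columns alone gave -0.19, with 3 intervals below 0 in place of 8. Small columns alone gave -0.47 and 30 genes, where 30.6% of all genes were called lower and the median of all genes was 0.14. Columns with a count in small columns gave -0.56 and 36 genes, where 32.8% of all genes were called lower and the median of all genes was 0.11. Columns without a count in large columns, added after seeing the data, gave -0.72 and 31 genes, where 28.9% of all genes were called lower. A 1.5-fold rule left 2 genes. In small columns MCM5 was at 1.24, POLA1 at 0.14 and POLA2 at 0.14, and by columns with a count at 1.35, 0.11 and 0.11. The values 0.14 and 0.11, also the medians of all genes there, are those that equal counts, or equal numbers of columns, give after scaling. Such values also enter the counts of opposite signs given below. The share of counts was 0.555% in ethanol and 0.349% in Nutlin-3 in small columns. At 350 counts a column held a mean of 1.76 of the genes in ethanol and 1.21 in Nutlin-3. The cause of these changes was not tested. Of 463 values of single genes under alternatives, 23 had the opposite sign, over 10 genes, 16 of them in small columns; 6 of the 23 belong to MCM5, POLA1 and POLA2, the genes among these called lower in all columns. No paired analysis was possible because column names give neither the library nor the spike-in dilution. Depth limits what can be seen for single genes.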
